A study of Mus musculus with 9 samples.

Results

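The genes examined here encode the mitochondrial respiratory chain and the ATP synthase. They were taken by their symbol in the annotation of the array, as every gene with a symbol beginning in Nduf, Uqcr, Atp5 or Cox4 to Cox8, together with Sdha, Sdhb, Sdhc, Sdhd, Cycs and Cyc1. This rule found 92 genes on 249 of the 42624 features. Of these, 89 genes had at least 1 cDNA clone with a value on all 9 arrays (230 features) and were tested among 8644 genes in all. The 89 genes were sorted by role into 6 core subunits of complex I, 30 accessory subunits and 8 assembly factors of complex I, 4 subunits of complex II, 9 of complex III, cytochrome c (1 gene), 14 of complex IV and 17 of complex V. Sorting followed the symbol, so that Ndufa4, now assigned to complex IV, and its paralog Ndufa4l2 were counted with complex I. Ndufs5-ps is a pseudogene entry, and its clones may share signal with the functional gene Ndufs5. None of the mitochondrially encoded subunits was tested, so all values below concern nuclear genes.

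RNA came from distal tail skin of female hairless SKH-1 mice, 3 wk old, freed from cartilage and taken on day 14. In the lymphedema group, the tail skin was incised around its circumference, the lymphatic trunks were stained with methylene blue and the stained trunks were cauterized. Surgical sham controls received the incision and the dye but no cautery, and normal controls were not operated. Each state was represented by 3 pools of 3 mice, hybridized once each with RNA of whole embryos (stage e17.5) as the common reference, so that n = 3 in every group and single mice cannot be told apart. The array values were read as log2 ratios, since the log base is not given. The deposited sign was turned here so that a higher value means more RNA in tail skin relative to the embryo. Each array was centered on its own median, and a value of 0 therefore marks the middle feature of an array. A ratio to the embryo is no absolute level, and ratios of different genes cannot be ranked as amounts of RNA. In whole skin, fewer cells of a type and less RNA per cell cannot be told apart.

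Complexes I and II pass electrons from NADH and succinate to ubiquinone. Complex III passes them on to cytochrome c, and complex IV passes them from cytochrome c to oxygen. Complexes I, III and IV pump protons across the inner mitochondrial membrane, and complex V, the ATP synthase, uses that gradient to make ATP. Many of the nuclear genes for these subunits are known to share binding sites for NRF-1, GABP (an ETS factor) and YY1 near their start sites. The epidermis is known to draw much of its energy from glycolysis, and muscle and brown fat are known for dense mitochondria.

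The promoters of the 3 members with the smallest p values in lymphedema against normal that have an entry among the RefSeq windows, and that of Cycs, the mobile electron carrier, are shown to give the sequence context of the genes on which the values below turn. Each window runs from 250 bases before to 50 bases after the start, on the strand of the gene, in build GRCm38.p6. They lie at chr9:50603800-50604099 (Sdhd, minus strand), chr5:145191492-145191791 (Atp5j2, minus strand), chr6:39592315-39592614 (Ndufb2, plus strand) and chr6:50566520-50566819 (Cycs, minus strand). Capitals mark a match to the NRF-1 core GCGCATGC, the ETS core CCGGAAG or the YY1 core AAGATGGC on either strand.
Sdhd: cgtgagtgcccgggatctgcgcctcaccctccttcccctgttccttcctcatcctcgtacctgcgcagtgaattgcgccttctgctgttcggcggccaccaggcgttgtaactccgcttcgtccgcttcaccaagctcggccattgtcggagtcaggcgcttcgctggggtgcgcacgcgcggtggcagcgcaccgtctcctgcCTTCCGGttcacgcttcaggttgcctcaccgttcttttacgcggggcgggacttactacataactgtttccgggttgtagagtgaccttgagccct
Atp5j2: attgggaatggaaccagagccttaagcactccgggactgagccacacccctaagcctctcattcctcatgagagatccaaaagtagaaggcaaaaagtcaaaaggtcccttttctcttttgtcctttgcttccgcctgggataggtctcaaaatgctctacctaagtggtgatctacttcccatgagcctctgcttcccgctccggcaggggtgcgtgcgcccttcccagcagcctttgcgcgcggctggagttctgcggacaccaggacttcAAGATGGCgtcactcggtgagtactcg
Ndufb2: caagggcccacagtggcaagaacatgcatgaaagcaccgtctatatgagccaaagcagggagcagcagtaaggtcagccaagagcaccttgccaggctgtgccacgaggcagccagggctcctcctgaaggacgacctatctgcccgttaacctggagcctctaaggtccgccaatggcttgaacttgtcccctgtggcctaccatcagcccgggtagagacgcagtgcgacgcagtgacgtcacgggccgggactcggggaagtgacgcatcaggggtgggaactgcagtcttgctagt
Cycs: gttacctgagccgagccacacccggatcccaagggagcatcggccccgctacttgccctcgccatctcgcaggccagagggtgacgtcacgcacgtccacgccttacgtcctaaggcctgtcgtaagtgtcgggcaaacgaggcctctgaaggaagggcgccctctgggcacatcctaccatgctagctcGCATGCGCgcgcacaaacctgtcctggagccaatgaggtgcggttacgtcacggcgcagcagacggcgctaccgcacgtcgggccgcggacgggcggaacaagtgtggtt
The Sdhd window held an ETS match, the Atp5j2 window a YY1 match and the Cycs window an NRF-1 match, each once, and the Ndufb2 window held none of the 3 letter strings. Windows were found for 73 of the 89 members. Cyc1 had none. The NRF-1 core was present in 13 of these 73 genes (17.8%), against 3.05% of all 27025 genes with a window. The ETS core was present in 19 (26%), against 9.93% of all genes, and the YY1 core in 11 (15.1%), against 3.19%. These counts describe letters in a fixed window and not bound sites.

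Before the states were compared, the members were described in normal skin against the embryo. The median log2 ratio over the 89 members was −0.598, that is 0.661 times the embryo value, and 82 of them (92.1%) lay below 0, against 50.3% of all genes. Every role had a median below 0. It was −0.567 for the core subunits of complex I, −0.468 for its accessory subunits and −0.389 for its assembly factors. It reached −1.12 for complex II, −0.765 for complex III, −0.798 for complex IV and −0.603 for complex V. Cycs had a ratio of −1.86. The lowest member was Cox6a2, the heart and skeletal muscle isoform of a complex IV subunit, with log2 ratios of −2.87, −2.54 and −2.96 on the 3 normal arrays. Cox8b, another isoform of muscle, had a mean of −1.90 ± 0.71 (SD, n = 3), whereas their widely expressed counterparts Cox6a1 and Cox8a had means of −0.48 ± 0.12 and −0.71 ± 0.13. The 11 measured skeletal muscle markers had medians of −4.47 to −3.84 on the same arrays, and their part in the ratios of the muscle isoforms was not tested. At the other end, Ndufa11, an accessory subunit of complex I, had a mean of 1.04 ± 0.64, with values of 0.37, 1.64 and 1.11 that differed widely between the arrays.

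**Figure D1:**
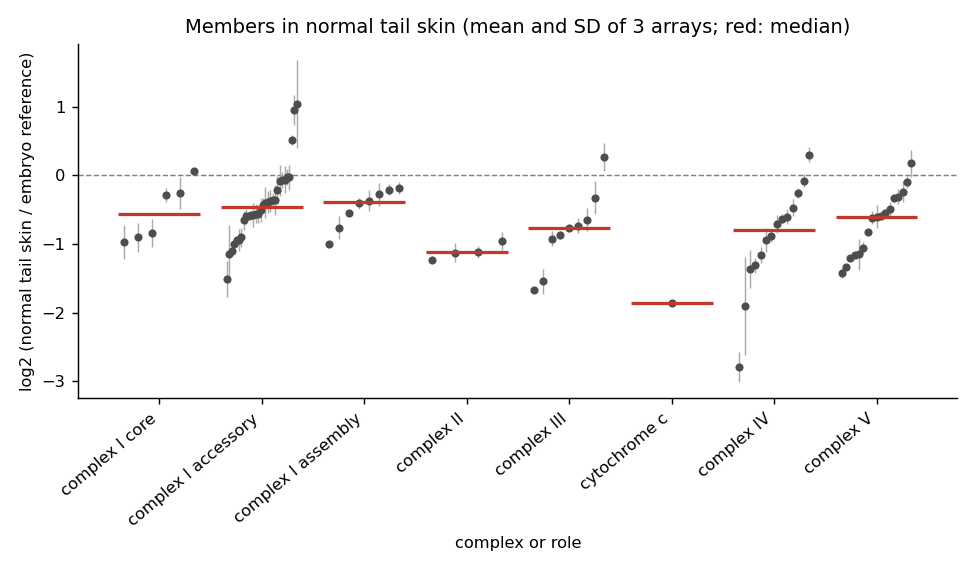
Log2 ratio of normal tail skin to the whole-embryo reference for the 89 members (vertical axis), grouped by complex or role; each point is the mean of 3 normal arrays with its SD, and red lines mark medians. Of the 89 members, 82 lie below 0, with the lowest point for Cox6a2 (−2.79) and the highest for Ndufa11 (1.04).

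In lymphedema, the members as a group lay higher than in normal skin, by small amounts for each gene. The median log2 difference over the 89 members was 0.307, against 0.0457 over all 8644 genes, and 80 members (89.9%) had a difference above 0, against 55.2% of all genes. Only Cyc1 and Sdhd passed an adjusted p of 0.05 in limma, both higher in lymphedema, and 0 members passed as lower. Among all genes 1.56% passed as higher and 0.555% as lower, so that 2 of 89 is close to the background. At an unadjusted p under 0.05 in limma, 27 members were higher and 1 was lower, against 1031 and 625 of all genes. A count of arrays that do not overlap gave a wider margin. All 3 lymphedema arrays lay above all 3 normal arrays for 44 members (49.4%), against 19.2% of all genes, and below them for 1 member, Ndufaf8, against 13.7%. SAM, the test that the methods name, was run here on means over the clones of a gene, without the filter and imputation of the methods. It called 26 members higher and 0 lower at a false discovery rate of 5%, against 10.8% of all genes called higher. The count of all genes that SAM called lower is given further below.

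The same shift was seen array by array. The median over the 89 members was −0.569, −0.628 and −0.656 on the normal arrays, −0.390, −0.176 and −0.432 on the lymphedema arrays and −0.579, −0.470 and −0.608 on the sham arrays. Each lymphedema array lay above each of the other 6, although lymphedema 3 exceeded sham 2 by little. The median over all genes stayed between −0.016 and 0.013 on every array. The spread of all genes on an array, as the median absolute deviation, was 0.538, 0.525 and 0.551 for normal, 0.501, 0.479 and 0.446 for lymphedema and 0.625, 0.553 and 0.476 for sham. The lymphedema arrays were thus narrower than the normal ones, while the median of the members lay below 0 on every array. When every array was scaled to 1 median absolute deviation, the member median was 0.259 with 73 of 89 members above 0, and with quantile normalization it was 0.226 with 67 above 0, against −0.0222 for all genes. The 25 embryo genes used to check the direction of the ratio also had array medians below 0, and their median differences were 0.335 in lymphedema against normal (19 of 25 above 0, 1 called), 0.0388 in sham against normal and 0.264 in lymphedema against sham, beside 0.307, 0.0892 and 0.242 for the members. What the 2 groups of genes share was not tested.

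**Figure D2:**
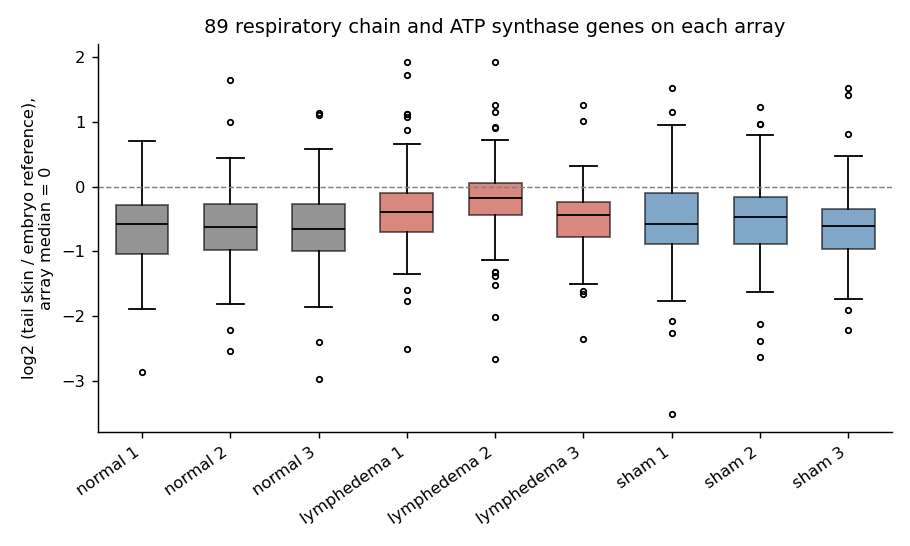
Log2 ratios of tail skin to embryo reference for the 89 members on each of the 9 arrays, with the median of each array at 0; boxes span the quartiles with the median as a line, whiskers reach 1.5 box lengths and circles are genes beyond them. The medians of the 3 lymphedema boxes (−0.390, −0.176 and −0.432) lie above those of the 6 normal and sham boxes.

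Cyc1 encodes the heme-bearing subunit of complex III that hands electrons to cytochrome c. Its log2 ratio was 0.51, 0.16 and 0.13 on the normal arrays, 1.73, 1.26 and 1.02 on the lymphedema arrays and 1.15, 0.96 and 0.81 on the sham arrays. Both operated groups lay above normal skin with no overlap, and lymphedema and sham overlapped. Cyc1 rose by 1.07 ± 0.21 (SE) on the log2 scale in lymphedema, 2.10-fold, with an adjusted p of 0.0365 in limma. The difference of sham from normal was 0.71 and that of lymphedema from sham 0.36, and neither passed in limma. Cyc1 rests on 1 clone.

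Sdhd encodes a membrane anchor of complex II, succinate dehydrogenase, the enzyme shared by the TCA cycle and the respiratory chain. Its log2 ratio was −1.28, −1.08 and −1.02 on the normal arrays, −0.26, −0.25 and −0.50 on the lymphedema arrays and −0.65, −0.57 and −0.90 on the sham arrays. The 3 states did not overlap, with sham in the middle. Sdhd rose by 0.79 ± 0.17 (SE) in lymphedema, 1.73-fold, with an adjusted p of 0.0403 in limma. Its 4 clones differed from 0.407 to 1.368, all above 0. The gene next upstream of the Sdhd start in RefSeq, 52 bases away, is Timm8b, which encodes a small chaperone of mitochondrial import. Timm8b had log2 ratios of −0.57, −0.92 and −0.55 in normal skin, 0.42, 0.41 and −0.18 in lymphedema and −0.26, −0.22 and −0.57 in sham. Its difference of 0.90 ± 0.21 in lymphedema against normal had an adjusted p of 0.0530 in limma.

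Both calls depended on the set of arrays. Of 20 alternative settings, 14 called Cyc1 and 9 called Sdhd. Without normal 1, normal 2, normal 3, lymphedema 1 or lymphedema 2, 0 members passed, and 1 passed without lymphedema 3, whereas the member median stayed at 0.252 to 0.363 over these settings. Leaving out 1 sham array, which changes only the shared estimate of the spread, gave 3 members without sham 1, 2 without sham 2 and 4 without sham 3. In the fit of normal and lymphedema arrays alone, 7 members passed, all higher. Calls over all genes moved as well. Of all 8644 genes, 135 passed as higher in the main fit, 8 without lymphedema 2 and 348 without sham 3. With the arrays of the 2 groups alone, 459 passed as higher. The changes in these counts are thus not particular to the members.

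**Figure D3:**
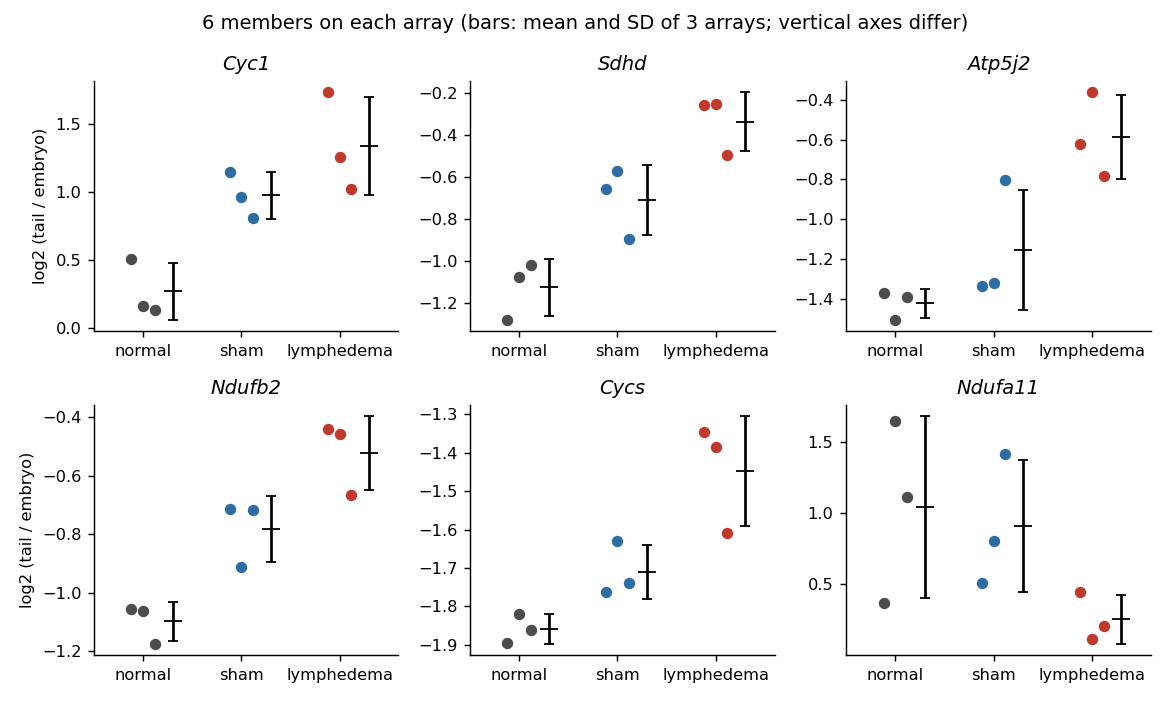
Log2 ratios of tail skin to embryo reference for 6 members on each array, in normal, sham and lymphedema skin; points are arrays, bars are the mean and SD of 3 arrays, and each panel has its own vertical axis. Cyc1, Sdhd, Atp5j2, Ndufb2 and Cycs have all 3 lymphedema points above all 3 normal points, and the points of Ndufa11 overlap.

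The other subunits of complex II were Sdhb, the iron-sulfur subunit, Sdhc, the second membrane anchor, and Sdha, the flavoprotein that oxidizes succinate. Sdhb was 0.51 ± 0.22 (SE) higher in lymphedema than in normal skin, with an adjusted p of 0.242 in limma, and its arrays did not overlap. The differences of Sdhc and Sdha were 0.24 and 0.14, and the 5 clones of Sdha ran from −0.255 to 0.671. Complex II as a whole had a median of 0.377 in lymphedema against normal, 0.203 in sham against normal and 0.195 in lymphedema against sham.

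In complex V, 17 of 17 subunits had a difference above 0 in lymphedema against normal, with a median of 0.365 and lymphedema arrays above normal with no overlap for 13 of them (76.5%, against 19.2% of all genes). No subunit passed in limma. Atp5j2, subunit f of the membrane part, came closest. It measured −1.37, −1.51 and −1.39 on the normal arrays, −0.62, −0.36 and −0.78 on the lymphedema arrays and −1.34, −1.32 and −0.81 on the sham arrays. Lymphedema lay above both other states with no overlap, while sham 3 came close to it. The difference from normal was 0.84 ± 0.19 (SE), 1.78-fold, with an adjusted p of 0.0514 in limma, and its 2 clones gave 0.789 and 0.882. Atp5o, which joins the catalytic head to the stalk, differed by 0.59 and Atp5pb, a stalk subunit, by 0.59, with adjusted p values of 0.134 and 0.0905 in limma. Another clone of Atp5pb, left out for a missing value, went the other way, with 0.29 and 0.35 on 2 normal arrays and −0.28, −1.34 and −0.07 in lymphedema, a difference of −0.886. The c ring that turns in the membrane is encoded by Atp5g1, Atp5g2 and Atp5g3, which make the same mature protein, and their differences were 0.40, 0.45 and 0.48. The last is the mean of 2 clones that disagreed, at 0.005 and 0.946, and Atp5g2 rests on 1 clone. Lowest in the complex were Atp5h, a stalk subunit, at 0.18 and Atp5d, a subunit of the central stalk, at 0.03. Both are means of clones on both sides of 0, at −0.205 and 0.564 for Atp5h and from −0.281 to 0.217 for Atp5d.

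In complex III, 8 of 9 genes had a difference above 0, with a median of 0.357 and lymphedema above normal with no overlap for 6 (66.7%, against 19.2% of all genes). Uqcr10, a small subunit, measured −0.61, −0.82 and −0.77 in normal skin, −0.08, 0.00 and −0.40 in lymphedema and −0.45, −0.75 and −1.09 in sham. Its lymphedema arrays stood above all others, and the difference was 0.57 ± 0.20 (SE) from normal and 0.60 from sham, with adjusted p values of 0.150 and 0.544 in limma. Uqcr10 rests on 1 clone. Uqcrh, the hinge protein, differed by 0.57 from normal. Uqcrb, next to the ubiquinone site, and Uqcrc1, a core protein, differed by 0.11 and −0.07. The 3 clones of Uqcrb ran from −0.148 to 0.353. Cycs measured −1.90, −1.82 and −1.86 in normal skin, −1.35, −1.38 and −1.61 in lymphedema and −1.76, −1.63 and −1.74 in sham. All 3 lymphedema arrays lay above the other 6, by a difference of 0.41 ± 0.15 (SE) from normal with an adjusted p of 0.180 in limma. Of the 6 Cycs clones, 5 lay above 0 and the lowest gave −0.094.

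In complex IV, 13 of 14 genes had a difference above 0, with a median of 0.304 and lymphedema above normal with no overlap for 5 (35.7%, against 19.2% of all genes). The small subunits Cox7b and Cox7c had the largest differences of the complex, 0.63 ± 0.30 and 0.60 ± 0.22 (SE), with adjusted p values of 0.280 and 0.168 in limma. Of the isoforms found in most tissues, Cox4i1 differed by 0.27, Cox6a1 by 0.28, Cox7a2 by 0.50 and Cox8a by 0.32. The muscle isoforms Cox6a2 and Cox8b differed by 0.28 and 0.09, and Cox6b2, an isoform known from testis, by 0.07. The 2 clones of Cox6b2 gave −0.154 and 0.285. Cox7a2l, a factor in the joining of complexes III and IV, differed by 0.23. The exception was Cox6b1, at −0.17, for which the clones did not move together. Of 3 further members, not tested because of missing values, Cox7b2 differed by 0.08 with 2 normal values, Cox8c by −0.77 with 2 normal values, and Cox7a1, a muscle isoform, by 0.14 with 2 lymphedema values.

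Complex I was the most uneven. Its 6 core subunits had a median difference of 0.141, its 30 accessory subunits 0.290 and its 8 assembly factors 0.0382. Among the core subunits, Ndufs8, which carries iron-sulfur clusters, measured −0.52, −0.13 and −0.11 in normal skin, 0.35, 0.68 and 0.33 in lymphedema and 0.51, 0.13 and −0.45 in sham. Lymphedema did not overlap normal skin, and sham spanned most of both. The difference from normal was 0.70 ± 0.24 (SE), with an adjusted p of 0.149 in limma. Ndufs7, another iron-sulfur subunit, differed by 0.50, while Ndufs3 and Ndufv2 differed by 0.03 and −0.03. The 2 clones of Ndufs3 gave −0.102 and 0.161.

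Among the accessory subunits, 27 of 30 had a difference above 0, and for 11 lymphedema lay above normal with no overlap (36.7%, against 19.2% of all genes). Ndufa4l2, a paralog of Ndufa4 that is known to respond to low oxygen, measured 0.71, 1.00 and 1.14 in normal skin, 1.93, 1.93 and 1.26 in lymphedema and 1.52, 0.97 and 1.52 in sham. The difference from normal was 0.76 ± 0.24 (SE), with an adjusted p of 0.114 in limma, and 3 of 3 clones were above 0 (0.570 to 0.970). Ndufa3 differed by 0.74, Ndufa4 by 0.68 and Ndufb2 by 0.58, the last with an adjusted p of 0.0831 in limma. Ndufa11, which sits in the membrane arm, was the lowest of all members. Its lymphedema values were 0.45, 0.12 and 0.21, below 2 of the 3 normal values given above but overlapping normal 1. The difference was −0.78 ± 0.31 (SE), with an adjusted p of 0.205 in limma, and a second clone, left out for missing values, gave −0.270. Ndufv3, the other low accessory subunit, differed by −0.17. The assembly factors, which build the complex but are not part of it, were the only role with a median difference close to that of all genes (0.0457). For 3 of the 8, lymphedema lay above normal with no overlap (37.5%, against 19.2% of all genes), and for 1 it lay below. Ndufaf5 and Ndufaf6 differed by 0.33 and 0.32, and Ndufaf1 and Ndufaf8 by −0.12 and −0.19. For Ndufaf8 the normal values of −0.14, −0.28 and −0.12 all lay above the lymphedema values of −0.38, −0.33 and −0.39.

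**Figure D4:**
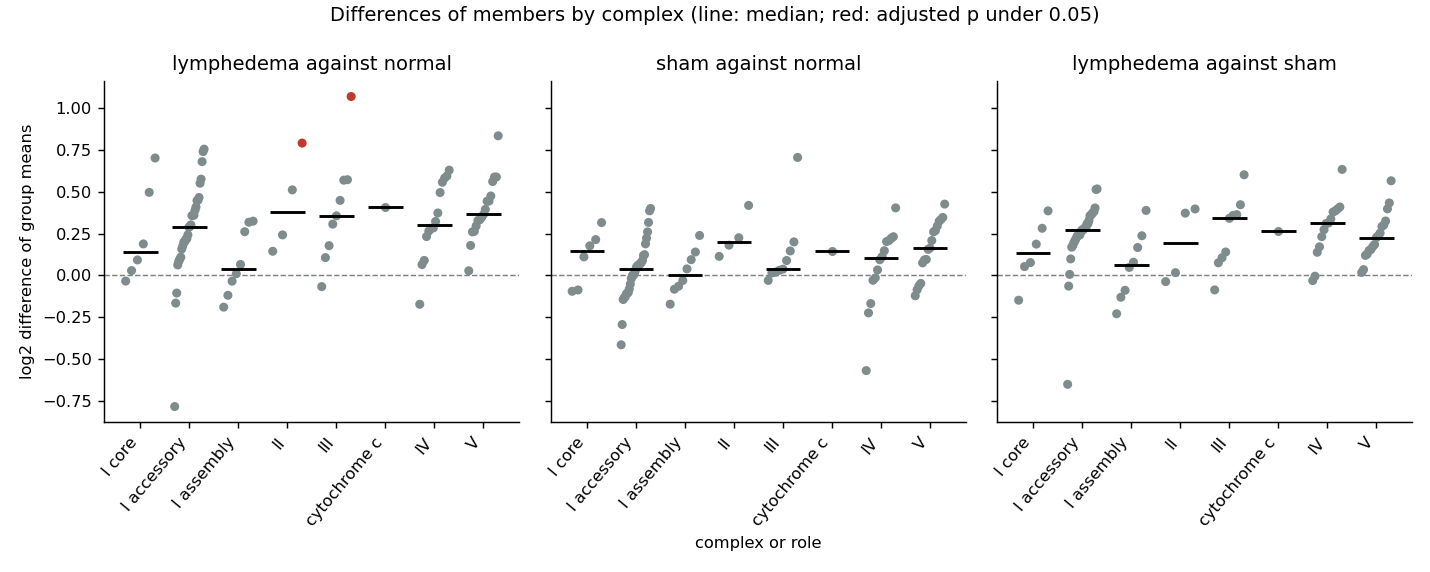
Log2 differences of group means for the 89 members (vertical axis) by complex or role in the 3 comparisons; each point is a gene, black lines are medians, and red points passed an adjusted p of 0.05 in limma. In lymphedema against normal, 80 points lie above 0 and 2 are red (Sdhd at 0.79 and Cyc1 at 1.07), and in the other comparisons none is red.

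Sham against normal set incision and dye against no operation. None of the members passed in limma, and 0% of all genes did. At an unadjusted p under 0.05 in limma, 2 members were higher and 1 was lower, against 404 and 255 of all 8644 genes, and SAM called 0. The median difference over the members was 0.0892, against 0.0266 over all genes, and 61 of 89 were above 0 (68.5%, against 54.4%). The 3 sham arrays lay above the 3 normal arrays for 12 members, or 13.5%, against 7.8% of all genes, and below them for 1, against 3.86%. The largest differences were those of Cyc1 at 0.71 and Atp5g2 at 0.43, and the lowest was that of Cox6b2 at −0.57. Cox6b2 was also the member that did not overlap, with normal values of −1.55, −1.05 and −1.50 and sham values of −2.07, −2.13 and −1.61.

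Lymphedema against sham set lymphatic cautery against incision and dye alone. No member passed in limma, against 0.0231% of all genes, and SAM called 0. At an unadjusted p under 0.05 in limma, 9 members were higher and 0 lower, against 331 and 295 of all 8644 genes. The median difference was 0.242, against 0.0319 over all genes, and 79 of 89 were above 0 (88.8%, against 55.1%). The 3 lymphedema arrays lay above the 3 sham arrays for 15 members (16.9%), against 5.55% of all genes, and below them for Ndufa11 alone, against 4.47%. By role the medians were 0.132 for the core subunits, 0.272 for the accessory subunits and 0.0637 for the assembly factors of complex I, 0.342 for complex III, 0.312 for complex IV and 0.227 for complex V. The largest differences were those of Cox6b2 at 0.63, Uqcr10 at 0.60 and Atp5j2 at 0.57. This comparison and the one before it share the sham arrays, as both share arrays with the first.

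For 12 members the 3 lymphedema arrays lay above all 6 other arrays, which is 13.5% of the members, against 3.75% of all genes, and for 0 members they lay below. The 12 were Sdhd, Cycs, Atp5j2, Atp5e, Cox6c, Uqcr10, Uqcrh, Ndufa2, Ndufb2, Ndufb10, Ndufc1 and Ndufaf5. They came from every complex, and the gap between the lowest lymphedema and the highest other array was between 0.009 (Ndufa2) and 0.177 (Uqcrh) on the log2 scale. Of these genes, Uqcr10, Ndufa2 and Ndufaf5 rest on 1 clone each. The 2 clones of Atp5e disagreed, with differences from normal of −0.012 and 0.679.

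No label or header names a slide batch, but missing features divided the arrays. Features present on the 3 normal arrays and lymphedema 1 and missing from the other 5 numbered 186, where the next of the 126 possible divisions held 45. These divisions are called sets below, as inferred from the missing features alone. Within the first set, lymphedema 1 exceeded the normal mean by a median of 0.288 over the members, with 72 of 89 above 0, against 0.048 over all genes. Within the second, lymphedema 2 and 3 exceeded the sham mean by a median of 0.240, with 78 of 89 above 0, against 0.029 over all genes. Cyc1 differed by 1.46 in the first set and 0.17 in the second, and Sdhd by 0.87 and 0.33. No set held both normal and sham arrays, so for that comparison set and state cannot be told apart. With the set as a block, the difference of lymphedema from normal is that of lymphedema 1 from the normal mean. It rests on 1 lymphedema array, so whether a gene passed in that fit cannot be read as a result.

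Clones of the same gene are separate spots of separate cDNAs. Over the 230 clones, 201 (87.4%) lay above 0 in lymphedema against normal, with a median of 0.347. Of the 68 members with 2 or more clones, 47 had all clones above 0, 4 had all below and 17 had clones on both sides. The catalytic subunit Atp5b, with 16 clones, had 15 above 0 and a range of −0.079 to 1.070. For Cox6b1, a subunit on the outer face of complex IV, 2 clones gave 0.647 and 0.507 and the third −1.670. That clone also had a ratio of 1.260 to the embryo in normal skin, where the other 2 had −0.833 and −0.665. The mean of −0.17 thus describes none of the 3 clones. Atp5a1, the other large subunit of the catalytic head, had 4 of 5 clones above 0 and 1 at −0.569. In normal skin that clone had a ratio of 2.075 to the embryo, where the other 4 ranged from −1.245 to −0.731.

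**Figure D5:**
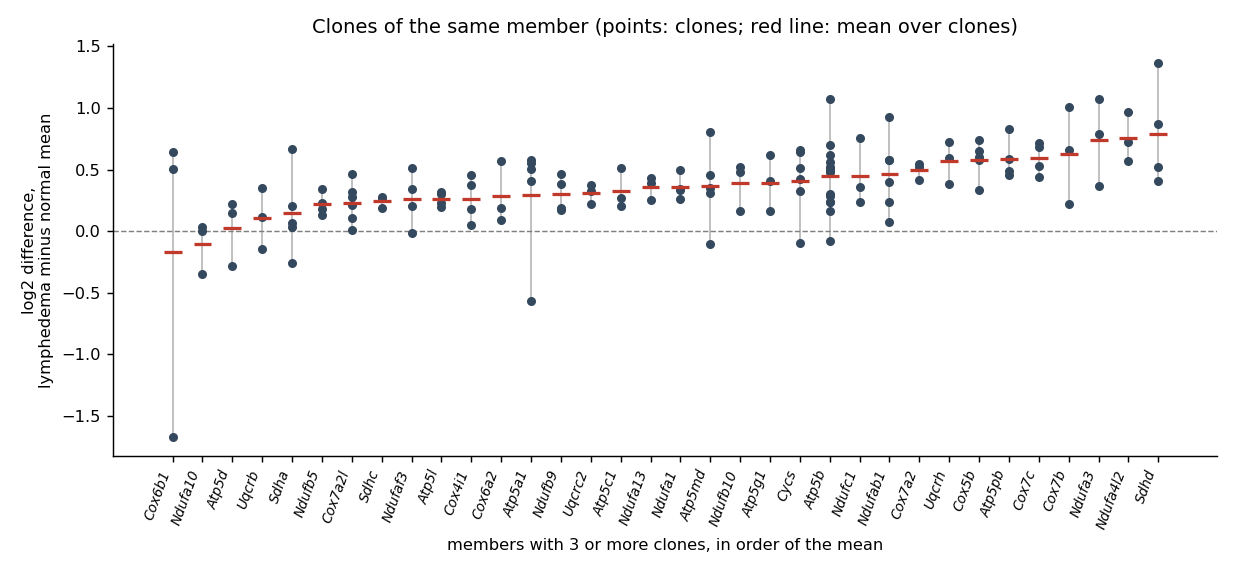
Log2 difference of lymphedema from normal for each clone of the members with 3 or more clones (vertical axis), ordered by the mean; points are clones, grey lines their range and red lines the mean over clones. The widest range is that of Cox6b1 (−1.670 to 0.647), and the 16 clones of Atp5b run from −0.079 to 1.070.

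Genes around the respiratory chain gave no call in limma in any of the 3 comparisons. Few genes were called in all. In lymphedema against normal, 1.56% of all genes passed as higher and 0.555% as lower. The share was 0% in sham against normal and 0.0231% in lymphedema against sham. The 17 tested genes of the TCA cycle and pyruvate dehydrogenase, which feed electrons to the chain, had a median difference of 0.256 in lymphedema against normal, with 13 of 17 above 0 (55.2% of all genes were) and 9 of 17 for which lymphedema lay above normal with no overlap (19.2% of all genes). The 8 carriers, porins and uncoupling proteins had a median of 0.322, with 6 above 0. The 19 genes of protein import and folding had 0.186, and the 27 assembly factors outside the symbol rule had 0.144. Medians were lower for the 12 genes of electron entry and ubiquinone synthesis (0.0998) and the 12 of mitochondrial gene expression and biogenesis (0.0632). In the last list, Esrra, a nuclear receptor that drives genes of the respiratory chain, differed by −0.90 ± 0.28 (SE) and Tfb1m, a methyltransferase of mitochondrial ribosomal RNA, by −0.60 ± 0.19, with adjusted p values of 0.114 and 0.115 in limma. Ppargc1a, a coactivator of Esrra, differed by 0.40 and Nrf1 by −0.39. Against sham, the TCA cycle list had a median of −0.0085, where the members had 0.242 and all genes 0.0319. The outside assembly factors had 0.146, the carriers, porins and uncoupling proteins 0.127, and import and folding 0.0897. Electron entry and ubiquinone synthesis had −0.0473, and mitochondrial gene expression and biogenesis −0.0153.

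Some markers of macrophages, neutrophils and fibroblasts changed with the states. Of 13 macrophage and monocyte markers, 4 (C1qa, C1qc, Fcer1g and Lyz2) were called higher in limma in lymphedema against normal, with a list median of 1.22. The medians of this list were −0.443 to −0.258 on the normal, 0.935 to 1.08 on the lymphedema and −0.348 to 0.809 on the sham arrays. Of 7 neutrophil markers 3 were called higher, with array medians of −0.957 to −0.470, 1.42 to 1.92 and −0.019 to 1.15 in the same order. Of 8 fibroblast markers 2 were called higher, with −1.66 to −1.53, −1.28 to −0.865 and −1.59 to −0.529. The 10 keratinocyte markers, which define the epidermis, had medians of 2.13 to 2.56 on all arrays and a difference of 0.00. The 11 skeletal muscle markers had a median of 0.306 in lymphedema against normal, 0.66 in sham against normal and −0.651 in lymphedema against sham, with none called. The 8 adipocyte markers had 0.176 and the 4 brown adipocyte markers 0.198 in lymphedema against normal. The 6 hair follicle and sebaceous gland markers had 0.239 with 1 called lower. Sham 3, a single pool, had the highest macrophage and neutrophil medians of the sham arrays (0.809 and 1.15). Both lay below those of every lymphedema array. The fibroblast and skeletal muscle medians of sham 3 (−0.529 and −2.75) were the highest of all arrays. Its hair follicle and sebaceous gland median (1.5) was the lowest. The member medians were −0.579, −0.470 and −0.608 on sham 1, 2 and 3. The part of these cells in the values of the respiratory chain genes was not tested.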

How the data were processed

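Total RNA of 9 pools of tail skin was hybridized against embryo RNA on 2-color cDNA arrays. The authors extracted features with GenePix 4.0, subtracted background and normalized the dyes. The deposited values are log ratios, 1 per feature and array. They were read as log2 ratios of the channels as the authors deposited them, since the log base is not given in the sources used here. The filter on reference signal and the imputation described in the methods are not in the table, in which 1.34% to 12.6% of values per array are missing. Depth does not apply to arrays, and their number limits the precision.

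Cy5 is the dye of tail skin in the labels but the dye of the embryo in the methods. After the sign was turned, 23 to 25 of 25 embryo genes lay below the array median and 13 or 14 of 14 adult skin genes above it on every array, with list medians of −4.16 to −3.61 and 2.74 to 3.36. The median of each array was taken over 30702 features, those with no missing value. The annotation table named 20678 features by 1 gene. Features named by several genes (953) or by none (20993) were not used. Clones of a gene were averaged, giving 8644 genes. Groups were compared with limma 3.58.1 in R 4.3.3 (lmFit and eBayes, group as the only term, all 9 arrays), with p values adjusted by Benjamini-Hochberg over all 8644 genes. Tables and figures were made with Python 3.11.15, pandas 2.3.3 and matplotlib 3.10.9. Counts in which arrays do not overlap require all 3 arrays of a group on one side. The steps were tested on simulated data.

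Members and gene lists were chosen with earlier results of these data known. Named members are those past the threshold, the 2 highest and 2 lowest of each role, and isoforms. Promoters were taken by smallest p with an entry, and Cycs by choice. Ndufb2, Ndufb10, Ndufc1, Ndufa2, Uqcrh, Cox6c, Atp5e, Atp5pb, Atp5b, Atp5a1, Timm8b, Esrra, Tfb1m, Ppargc1a and Nrf1 are named outside this rule and were chosen after seeing their values. The replicate numbers of the labels did not pair the arrays, with correlations of same-numbered arrays from −0.244 to 0.279. Alternatives were no centering, scaling to 1 median absolute deviation and quantile normalization. A filter of 2 of 3 values in each group was also used (missing values kept missing, or imputed with k = 10). Further alternatives were a fit on only the 2 groups compared and SAM (all 20 permutations, false discovery rate 5%). The rest were blocks of the replicate number or of the set inferred from missing features, the first clone only and each array left out. Centering on every feature present on an array was added after seeing the data.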

Additional observations from a re-analysis of the deposited data

Results flagged for a closer look

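Among clones left out for a missing value, 2 gave lymphedema values above all measured normal values. Another clone of Atp5o measured −0.67, −0.53 and −0.30 in normal skin and 0.84 and −0.30 in lymphedema, a difference of 0.77 between means, with 1 lymphedema value missing and its lower lymphedema value barely above the highest normal one. Another clone of Ndufc2, an accessory subunit of complex I, measured −1.10 and −1.32 on 2 normal arrays and −0.77, −0.63 and −1.06 in lymphedema, a difference of 0.38. Another left-out clone went the other way. It belongs to Atp5pb, with 0.29 and 0.35 on 2 normal arrays and −0.28, −1.34 and −0.07 in lymphedema, a difference of −0.886.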

How the results depend on the processing

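The member median in lymphedema against normal was 0.220 (first clone only) to 0.364 (centering on every feature present on an array, chosen after seeing the data, which puts the median of all genes at 0.103), and every setting kept it above 0. In sham against normal the median was −0.00017 with the first clone only and 0.125 at the highest. Against sham it was 0.179 to 0.307. In the other 2 comparisons no setting called a member. In lymphedema against normal, 1 member was called after scaling to 1 median absolute deviation and 1 after quantile normalization. With arrays of the 2 groups only 7 were called, and with SAM 26. The inferred set as a block leaves 1 lymphedema array to compare with normal, so its calls are not given. With 1 array left out, 0 to 4 were called. Over all genes, calls were 135 higher and 48 lower, against 931 and 638 by SAM and 245 and 52 with every feature in the centering. They were 197 and 58 after scaling, 112 and 72 after quantile normalization and 459 and 296 with 2 groups only. The fit with the inferred set as a block is left out here for the same reason. Leaving out lymphedema 2 gave 8 and 2, and leaving out sham 3 gave 348 and 183. With the replicate number as a block, 1 member and 47 and 20 of all genes were called; 1 of 9 arrays correlated best with its own number in both other groups, so the numbers pair nothing. In normal skin against the embryo, the first clone only gave a member median of −0.772.

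Among named members, 29 signs turned, none at an adjusted p under 0.05 on either side. After scaling to 1 median absolute deviation these were Atp5d (−0.00), Cox6a2 (−0.02), Cox6b2 (−0.10) and Cox8b (−0.12). After quantile normalization they were Atp5d (−0.02), Cox6a2 (−0.11), Cox6b2 (−0.18), Cox8b (−0.26), Ndufs3 (−0.03), Sdha (−0.08) and Uqcrb (−0.03). With the first clone only they were Atp5h (−0.20), Cox6b2 (−0.15), Ndufs3 (−0.10), Sdha (−0.26) and Uqcrb (−0.15). The inferred set as a block gave Atp5d −0.11, and centering on every feature gave Ndufv2 0.02. With 1 array left out, values ran for Atp5d from −0.05 to 0.10, Cox6b2 from −0.04 to 0.22, Cox8b from −0.16 to 0.50, Ndufv2 from −0.11 to 0.09, Uqcrb from −0.01 to 0.33 and Uqcrc1 from −0.22 to 0.13. With the first clone only, Cox6b1 was called lower (−1.67, adjusted p = 0.0247 in limma) and Sdhd was 0.41 with an adjusted p of 0.421. The cause of these changes was not tested. The 3 arrays a group limit what could be called.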
